A study of Mus musculus with 10 samples.

Results

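The imprinted gene loci examined here are 8 windows of the mouse genome (build mm9) around Dlk1 and Meg3, Ube3a and Snrpn, Peg3, Peg10, Gnas, Igf2r, Mest, and Kcnq1ot1 with Cdkn1c. Their members are the regions of the deposited H3K27ac table that overlap a window by at least 1 base, 30 of 50898 regions. H3K27ac, acetylation of lysine 27 of histone H3, marks active promoters and enhancers and was profiled by ChIP-seq of cerebral cortex from C57BL/6J mice aged 8 weeks. The 5 Het mice were heterozygous for a Dnmt3a knockout in the genotype label, and the 5 WT mice were their wild-type littermates, in 3 male and 2 female pairs. The description of Het replicate 5 uses the term cKO, and its genotype label was followed. Values are pseudo-counts, read counts that the authors adjusted to a common library size, and a region's class (prom for promoter, enh for enhancer, and uaProm, which is not spelled out) is the authors'.

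At an imprinted gene, the copy from one parent is silenced and the other is expressed, and the choice is carried by DNA methylation laid down in the egg or sperm at a differentially methylated region. Dnmt3a, a de novo DNA methyltransferase, sets these germline marks, and in postnatal neurons it also methylates DNA outside them. Many imprinted genes act in brain growth and behaviour, and Ube3a is silenced on the paternal copy in neurons. The libraries do not separate the parental alleles, so each value sums both copies, and whether a region is imprinted in this tissue was not measured. In a bulk tissue, fewer cells of a type that carries the mark and less of the mark per cell cannot be told apart.

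Windows were taken as given, since no mm9 annotation was used here. Within a window that names more than 1 gene, regions are therefore numbered along the chromosome and not assigned to a gene. For the same reason the markers of cortical cell types were not analysed here. By gene order alone, the RefSeq table of GRCm38 places Meg3, Rtl1, Rian and Mirg after Dlk1. It places Snhg14 and Ipw between Ube3a and Snrpn, and Kcnq1 next to Kcnq1ot1 and Cdkn1c. Airn, the noncoding RNA that overlaps Igf2r, follows Igf2r, and Sgce, Copg2 and Peg3os neighbour Peg10, Mest and Peg3.

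To show the CpG sites that could carry methylation near the starts of these genes, the 250 bases before an annotated start (for Mest the second of 3, for Meg3 the first of 2) are printed for 6 of them, from RefSeq on GRCm38.p6, with each CpG in capitals. Of the 11 genes named by the windows, 9 had a promoter in the table, 18 starts in all; Peg10 and Cdkn1c were not matched. The builds differ, so these windows were not overlapped with the H3K27ac regions.
Peg3: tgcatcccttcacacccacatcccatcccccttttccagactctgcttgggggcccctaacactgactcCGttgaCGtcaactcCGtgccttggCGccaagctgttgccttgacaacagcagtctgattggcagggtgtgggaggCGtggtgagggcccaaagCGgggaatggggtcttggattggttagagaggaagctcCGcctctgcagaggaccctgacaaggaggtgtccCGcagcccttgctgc
Mest: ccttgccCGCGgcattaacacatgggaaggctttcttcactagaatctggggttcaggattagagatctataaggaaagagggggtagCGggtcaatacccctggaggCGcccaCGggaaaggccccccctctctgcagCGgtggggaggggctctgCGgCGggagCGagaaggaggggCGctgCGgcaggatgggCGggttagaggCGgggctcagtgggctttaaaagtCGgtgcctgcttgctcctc
Meg3: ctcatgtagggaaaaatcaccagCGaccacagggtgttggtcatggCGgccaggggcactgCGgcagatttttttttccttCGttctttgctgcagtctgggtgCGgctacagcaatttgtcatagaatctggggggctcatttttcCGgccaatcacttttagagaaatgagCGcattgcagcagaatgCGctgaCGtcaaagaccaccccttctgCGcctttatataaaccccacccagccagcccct
Kcnq1ot1: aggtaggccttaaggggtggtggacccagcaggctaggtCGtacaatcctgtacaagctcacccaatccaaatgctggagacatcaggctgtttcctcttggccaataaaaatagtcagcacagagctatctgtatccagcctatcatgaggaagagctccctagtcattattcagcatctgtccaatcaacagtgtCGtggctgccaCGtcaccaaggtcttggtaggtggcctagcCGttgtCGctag
Ube3a: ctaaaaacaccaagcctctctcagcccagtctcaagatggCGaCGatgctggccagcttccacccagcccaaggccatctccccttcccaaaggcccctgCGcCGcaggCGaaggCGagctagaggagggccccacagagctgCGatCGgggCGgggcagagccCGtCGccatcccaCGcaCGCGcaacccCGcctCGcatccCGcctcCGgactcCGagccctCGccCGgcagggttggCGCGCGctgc
Igf2r: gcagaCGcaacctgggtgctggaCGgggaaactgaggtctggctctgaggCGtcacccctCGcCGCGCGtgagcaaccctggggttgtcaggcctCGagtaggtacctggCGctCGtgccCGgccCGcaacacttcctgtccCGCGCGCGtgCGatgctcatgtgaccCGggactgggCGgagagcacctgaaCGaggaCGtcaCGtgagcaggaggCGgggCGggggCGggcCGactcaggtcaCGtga
The Peg3 stretch is chr7:6730420-6730669 (minus strand), that of Mest chr6:30737800-30738049 (plus), that of Meg3 chr12:109540746-109540995 (plus), that of Kcnq1ot1 chr7:143296548-143296797 (minus), that of Ube3a chr7:59228500-59228749 (plus) and that of Igf2r chr17:12769707-12769956 (minus). Igf2r held 27 CpG sites, more than 91.4% of the 32851 promoters in the table, and Ube3a held 24. Kcnq1ot1 held 5, against a median of 6 over all promoters. Mest held 14, Meg3 held 10 and Peg3 held 8. The 4 starts listed for Snrpn had 2 to 4 CpG sites and the 4 listed for Gnas had 14 to 29. The hexamer TGCCGC, known as the core of the motif of ZFP57, a zinc-finger protein that protects methylated imprints, was searched on both strands. It was present in 3 of the 18 promoters, once in the printed Meg3 stretch and 2 times in each of 2 overlapping Mest stretches, and in 8.68% of all promoters. AAGATGGC, a form of the YY1 motif, was found on either strand in 1 of the 18, that of Ube3a, and in 1.56% of all promoters.

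The 30 regions comprised 16 promoter, 12 enhancer and 2 uaProm regions. Promoter regions made up 53.3% of the members and 32.5% of the whole table. The windows were drawn around named genes and the table was not, so these shares are not like for like. The windows of Peg3, Peg10, Gnas and Mest held 1 region each, all of class prom. The Igf2r window held 7 regions in 105 kb, or 6.67 per 100 kb, and the Kcnq1ot1 and Cdkn1c window held 10 in 380 kb. The Ube3a and Snrpn window held 2 regions in 970 kb, or 0.206 per 100 kb, with 662 kb between them, against 1.99 per 100 kb over the table. In the Dlk1 and Meg3 window, which held 7 regions in 320 kb, no region of the table lay in the lowest 97.7 kb. Signal per length among the promoter members ran from 12.4 to 114 pseudo-counts per kb, with a median of 26.1 against 31.2 for all promoter regions, and 6 of 16 lay above that class median. The enhancer members ran from 12.6 to 24.2 per kb, with a median of 16.0 against 17.8 for all enhancer regions.

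Depth, recovered as reads in all regions, was lowest in WT replicate 5 (2771534) and highest in Het replicate 2 (8453140), and a member region held from 1 to 931 reads in a library. The strongest 5% of regions held from 28.2% of the signal in Het replicate 1 to 33.6% in WT replicate 4.

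The first comparison asked whether cortical H3K27ac at these loci differs between Het and WT mice. None of the 30 regions passed limma's test for genotype with Benjamini-Hochberg adjustment over all regions (smallest unadjusted p 0.122), and none had an unadjusted p under 0.05. Over the whole table, 0.00196% of regions passed the adjusted test and 2.10% had an unadjusted p under 0.05. Limma-voom on the recovered reads also called 0 of the 30, with 0 at an unadjusted p under 0.05. The shares of all regions under limma-voom are not given, for this comparison or for the later ones. Het values exceeded WT values in 17 of the 30 regions and were lower in 13, with log2 fold changes from -0.28 to 0.16. Their median was 0.018, beside 0.0092 over all regions. The sign of the smallest differences turned under other scalings, at Peg10 with TMM factors, at the first Ube3a and Snrpn region with median-of-ratios factors and at Gnas with cyclic loess. The members' 95% intervals limit what could have been missed. All 30 intervals lay inside 2-fold in either direction, as did 99.1% of those of the whole table, and 25 (83.3%) lay inside 1.5-fold, against 79.6% of the table. No member had all Het values above or below all WT values, which 0.375% of all regions did. None was higher in Het in 5 of 5 pairs or lower in all 5, where 3.53% and 2.46% of all regions were. In the authors' deposited table, all 30 members have an FDR of 1, and the smallest p-value among them is 0.167. The share of all regions with that FDR is not given here, so this does not set the members apart.

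**Figure D1:**
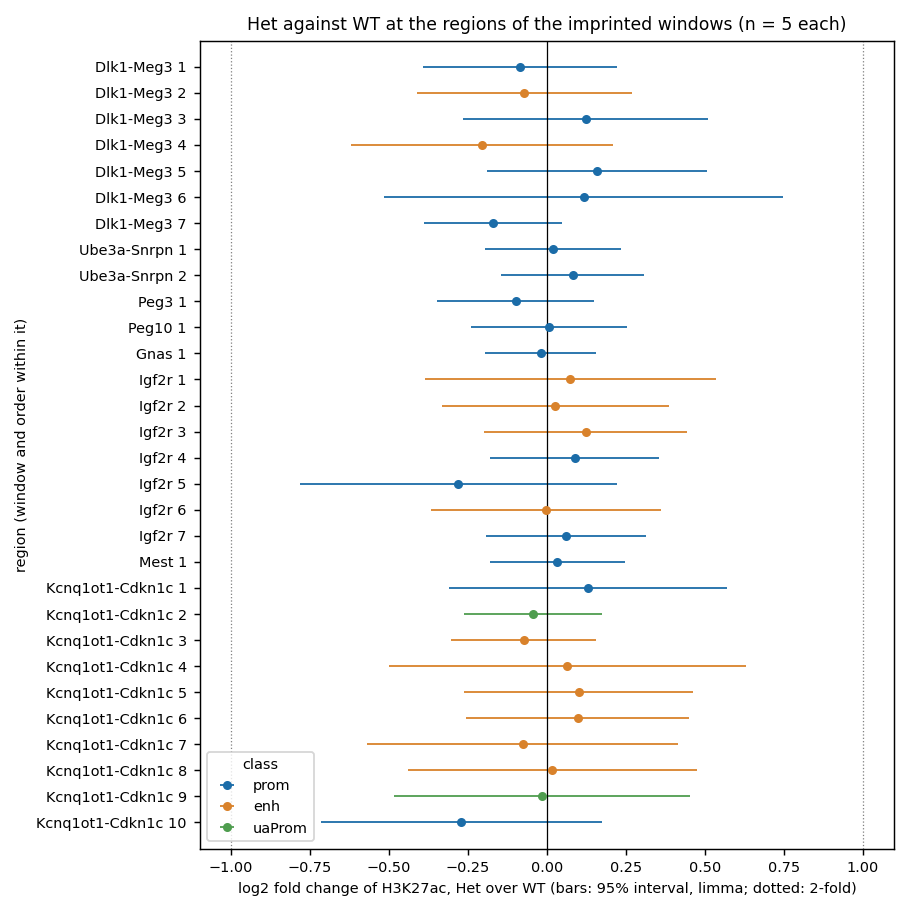
Log2 fold change of H3K27ac between Het and WT (x axis) for each of the 30 regions (y axis, named by window and order along it), coloured by class. Points are limma estimates with 95% intervals from 5 Het and 5 WT libraries; each interval includes 0, and all 30 lie inside the dotted 2-fold lines.

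Peg3, a paternally expressed zinc-finger protein gene, had a window with 1 promoter region, chr7:6679743-6685054, with a mean of 240.5 pseudo-counts. WT replicates 1 to 5 had 209, 248, 326, 259 and 203 pseudo-counts, and Het replicates 1 to 5 had 210.2, 235, 269, 276 and 170.2. The genotypes overlapped, and within each of them replicates 3 and 4 were the highest and replicate 5 the lowest. The WT mean was 249 ± 49.3 and the Het mean 232 ± 43.7 pseudo-counts (SD, n = 5 in each genotype here and below), and the log2 fold change was -0.10 (SE 0.12, limma adjusted p 1.00). The 95% interval of the ratio of Het to WT ran from 0.79 to 1.11.

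The Peg10 window, around a paternally expressed gene derived from a retrotransposon, held the promoter region chr6:4695819-4699212. The WT libraries had 95.3, 91.5, 121, 122 and 91.5 pseudo-counts in replicates 1 to 5, and the Het libraries had 97.2, 96.3, 131, 101 and 97.8. The 3 highest values came from both littermates of replicate 3 and from WT replicate 4, and the other 7 libraries lay between 91.5 and 101. The group means were 104 ± 15.9 and 105 ± 14.8, with a log2 fold change of 0.01 (SE 0.12).

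Mest, a paternally expressed gene of a hydrolase-like enzyme, had the promoter region chr6:30684491-30690705, which was 6214 bp wide. It carried 147, 144, 150.4, 173 and 149 pseudo-counts in WT replicates 1 to 5 and 177, 155, 152, 177 and 125 in Het replicates 1 to 5. The Het libraries spread from 125 to 177 and enclosed all WT libraries. The means were 153 ± 11.4 in WT and 157 ± 21.4 in Het, and Het was the higher in 4 of 5 pairs (log2 fold change 0.03, SE 0.11).

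Ube3a encodes a ubiquitin ligase whose maternal copy is the active one in neurons, and Snrpn encodes a splicing protein expressed from the paternal copy. Their window held 2 promoter regions. The first, chr7:66482776-66485945, had the highest signal per length of all members, 114 pseudo-counts per kb, above that of 99.9% of promoter regions. It had 322, 325, 378, 446 and 323 pseudo-counts in WT replicates 1 to 5 and 316, 372, 439, 397 and 296 in Het replicates 1 to 5. Its means were 359 ± 54.0 in WT and 364 ± 58.5 in Het, a log2 fold change of 0.02 (SE 0.11) with a 95% interval of the ratio from 0.87 to 1.18. The second, chr7:67147506-67150785, had 139, 144, 159, 169.6 and 121 in WT and 128, 155, 186, 173 and 135 in Het. Both regions were highest in replicates 3 and 4 and lowest in replicates 1 and 5, whatever the genotype, if the values of littermates are averaged. The second region was higher in Het in 4 of 5 pairs, with means of 146 ± 18.7 and 155 ± 24.8 and a log2 fold change of 0.08 (SE 0.11).

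The Gnas window, around the complex locus of the stimulatory G protein alpha subunit, held the promoter region chr2:174152366-174171399. At 19033 bp it was the widest member, wider than 96.5% of promoter regions, and its mean of 655 pseudo-counts was the highest. WT libraries had 637, 638, 682, 586 and 763 pseudo-counts and Het libraries 689, 617, 654, 619 and 671, in replicates 1 to 5. The highest and the lowest library were both WT, so the Het values lay within the WT range. The means were 661 ± 66.2 in WT and 649.8 ± 31.6 in Het, with a log2 fold change of -0.02 (SE 0.09) and the narrowest spread between animals of all members, an SD of 0.11 on the log2 scale.

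**Figure D2:**
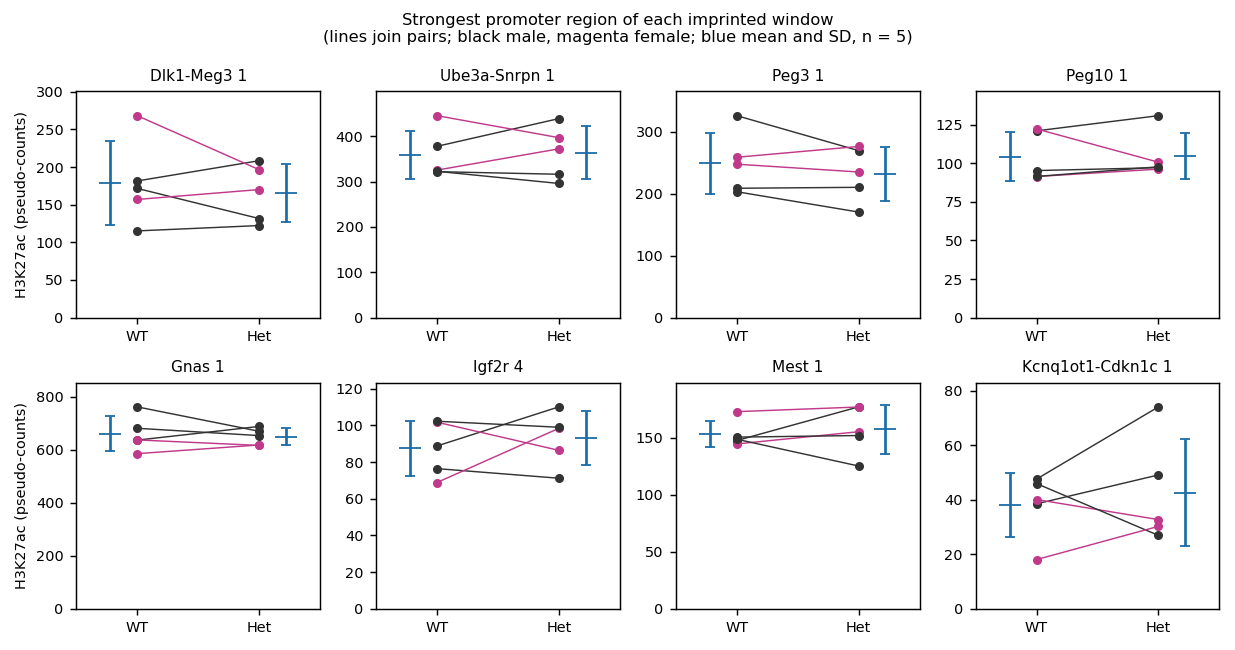
H3K27ac (y axis, pseudo-counts, from 0) in WT and Het (x axis) for the promoter region with the highest mean in each window. Points are animals, lines join pairs (black male, magenta female), and blue bars give the mean and SD of 5 animals; the genotypes overlap in all 8 panels.

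Igf2r encodes the receptor that binds insulin-like growth factor 2 and mannose 6-phosphate, and its window held 3 promoter and 4 enhancer regions. The strongest promoter region, Igf2r region 4 (chr17:12929971-12935657), had 88.8, 102, 76.4, 68.8 and 102 pseudo-counts in WT replicates 1 to 5 and 110.1, 86.4, 71.2, 98.4 and 99.0 in Het replicates 1 to 5. The groups overlapped over most of their range, with means of 87.6 ± 14.9 and 93.0 ± 14.8 and a log2 fold change of 0.09 (SE 0.13). Region 7 (chr17:12961436-12963494), a promoter region with a higher signal per length (35.8 against 15.9 per kb), ran from 67.9 to 81.3 in WT and from 66.4 to 83.0 in Het. Its spread between animals was above that of 4.25% of regions of like signal. The strongest enhancer region, region 3 (chr17:12915666-12919311), had 58.4, 52.7, 53.7, 49.4 and 47.9 in WT and 70.8, 60.5, 40.4, 46.8 and 74.4 in Het. Here the WT libraries lay close together and the Het libraries lay on both sides of them, with means of 52.4 ± 4.11 and 58.6 ± 14.8 (log2 fold change 0.12, SE 0.16). Region 5 (chr17:12942302-12943567), a weak promoter region, had the lowest log2 fold change of all members, -0.28 (SE 0.25), with 19.7, 19.6, 18.3, 13.2 and 24.4 in WT and 17.7, 10.5, 13.7, 13.4 and 23.5 in Het. It was lower in Het in 4 of 5 pairs, and its unadjusted p was 0.264. The other 3 regions of the window had log2 fold changes from -0.0031 to 0.074.

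Kcnq1ot1 is a paternally expressed noncoding RNA that silences neighbouring genes, and Cdkn1c encodes a maternally expressed inhibitor of cyclin-dependent kinases. Regions 2 and 3 of their window lay 1.11 kb apart and were the strongest of its 10. The uaProm region 2 (chr7:150480101-150484382) ran from 116 to 154 pseudo-counts in WT and from 119.8 to 145 in Het, with a log2 fold change of -0.04 (SE 0.11). The enhancer region 3 (chr7:150485492-150491942) had 146, 161, 146, 147 and 199 in WT replicates 1 to 5 and 129.6, 157, 134, 152 and 188 in Het replicates 1 to 5. Both littermates of replicate 5 stood above all other libraries, and the means of 159.8 ± 22.6 and 152 ± 23.4 differed by less than the spread (log2 fold change -0.07, SE 0.11). The strongest promoter region, region 1 (chr7:150293068-150296321), had 38.5, 40.1, 46.0, 18.1 and 47.6 in WT and 49.1, 32.7, 26.9, 30.3 and 74.1 in Het. Its values differed 4.10-fold between the lowest library, WT replicate 4, and the highest, Het replicate 5. Region 10 (chr7:150644658-150647392), also of class prom, had 45.0, 43.5, 49.2, 23.8 and 43.8 in WT and 45.2, 32.7, 20.3, 21.5 and 58.7 in Het. In WT only replicate 4 was low, and in Het replicates 3 and 4 were low, so that the means were 41.1 ± 9.91 and 35.7 ± 16.4 (log2 fold change -0.27, SE 0.22, unadjusted p 0.224). Single libraries moved this value, to -0.034 without Het replicate 3, -0.14 without WT replicate 2, -0.18 without Het replicate 4 and -0.44 without Het replicate 5. At region 1 the log2 fold change of 0.13 (SE 0.22) was -0.053 without WT replicate 4 and 0.34 without Het replicate 3. The other 6 regions had log2 fold changes from -0.077 to 0.10.

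Dlk1, a membrane protein related to Notch ligands, is expressed from the paternal copy, and Meg3, a noncoding RNA, from the maternal copy. In their window, region 1 (chr12:110777687-110781407) had 172, 157, 181, 268 and 115 pseudo-counts in WT replicates 1 to 5 and 132, 170.0, 208, 196 and 122 in Het replicates 1 to 5. Replicate 5 was lowest and replicate 3 or 4 highest in each genotype. The means were 179 ± 56.1 and 166 ± 38.2, with a log2 fold change of -0.09 (SE 0.15). Region 7 (chr12:110983619-110989548) had the smallest unadjusted p of all members, 0.122, with 176, 151, 147, 210.0 and 176 in WT and 141, 153, 141, 189 and 139 in Het. It was lower in Het in 4 of 5 pairs, with means of 172 ± 25.1 and 153 ± 20.9 and a log2 fold change of -0.17 (SE 0.11). With litter as a block its unadjusted p was 0.0579 and its adjusted p stayed at 1.00. In that fit 0 members passed the adjusted test and 0 had an unadjusted p under 0.05, against 0.00589% and 4.63% of all regions. Region 5 (chr12:110949823-110952294) had the highest log2 fold change of all members, 0.16 (SE 0.17), with 35.3, 42.9, 31.2, 36.9 and 28.4 in WT and 28.4, 43.6, 38.9, 47.3 and 38.2 in Het. The strongest enhancer region, region 2 (chr12:110792926-110795526), ran from 35.6 to 51.3 in WT and from 34.2 to 57.1 in Het. Region 6, the weakest member at 14.7 pseudo-counts, held 1 read in the library with the fewest.

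Summed over each window, the Het and WT libraries overlapped everywhere. The mean log2 ratio of Het to WT over the 5 pairs was -0.086 ± 0.136 for the Dlk1 and Meg3 window (SD) and -0.10 ± 0.162 for Peg3, where Het was higher in 1 and in 2 of 5 pairs. It was 0.037 ± 0.147 for Ube3a and Snrpn, 0.044 ± 0.167 for Igf2r and 0.033 ± 0.185 for Mest. The smallest values were 0.0062 ± 0.163 for Peg10, -0.020 ± 0.119 for Gnas and -0.017 ± 0.177 for Kcnq1ot1 with Cdkn1c. In all 8 windows the mean was smaller than the SD between pairs. These sums were not tested.

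At all 30 regions the genotype log2 fold change was smaller in size than the SD between animals of a genotype. The share of all regions where this held is not given here, so the count does not set the members apart. The SD between animals of a genotype, on the log2 scale, had a median of 0.28 over the 30 regions, against 0.24 over the whole table. This SD pools males and females and all litters, so differences between sexes or litters are part of it. Compared with the 1000 regions of next lower and the 1000 of next higher mean signal, 20 of 30 members had a spread above the median of those regions and 8 were above the 90th percentile. The highest were Dlk1-Meg3 region 1, with an SD of 0.39 above 99.65% of like regions, Kcnq1ot1-Cdkn1c region 1, with 0.57 above 99.35%, and region 10 of the same window, with 0.54 above 99.15%. The other 5 were regions 6, 8 and 9 of that window, Igf2r region 6 and Peg3, above 94.8% to 98.7% of like regions. Gnas, Igf2r region 7 and Kcnq1ot1-Cdkn1c region 2 lay among the steadier ones, above 18.5%, 4.25% and 29.1% of like regions.

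**Figure D3:**
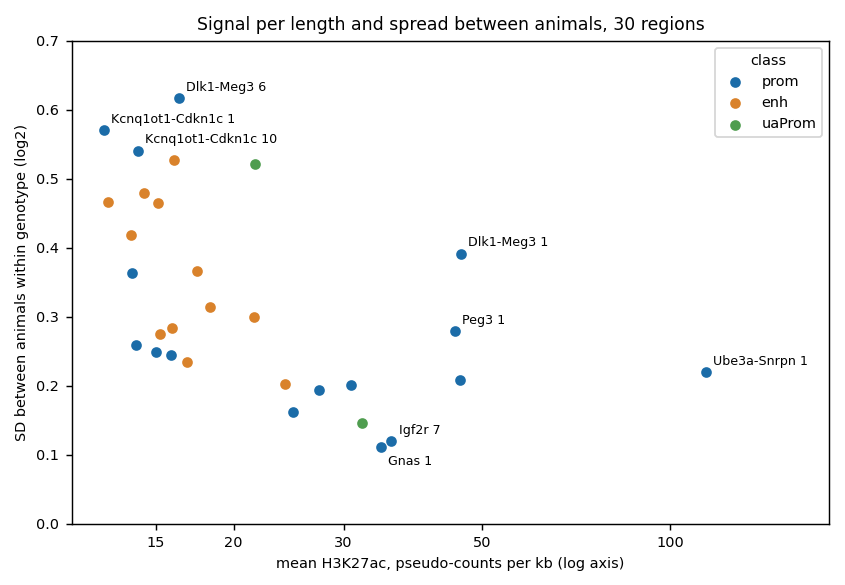
Mean H3K27ac per length (x axis, pseudo-counts per kb, log axis) against the SD between animals within genotype (y axis, log2 scale) for the 30 regions, coloured by class. Dlk1-Meg3 region 1 lies at 46.3 per kb with an SD of 0.39, and Gnas and Igf2r region 7 lie lowest.

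In every library except Het replicate 3, the median deviations had opposite signs at dense and at sparse members. Dense members were the 13 at or above the median signal per length of all regions, 19.5 pseudo-counts per kb, and sparse members the 17 below it, a division made after the values were seen. Het replicate 1 lay below the mean of the 10 libraries at dense members (median log2 deviation -0.17) and above it at sparse members (0.31). Het replicate 5 did likewise, with -0.15 and 0.33. WT replicate 4 lay above the mean at dense members (0.16) and below it at sparse ones (-0.15), and Het replicate 4 had 0.078 and -0.14. Het replicate 3, with -0.010 and -0.25, was low at sparse members. Over all regions of the table, sparse regions moved the same way in these 5 libraries, by 0.26, 0.15, -0.22, -0.088 and -0.17 in the order named. Dense regions of the table stayed between -0.032 and 0.022 in all 10 libraries. WT replicate 2 had -0.090 at dense and 0.19 at sparse members, and all sparse regions there had 0.083. The values were smaller in WT replicate 1, with -0.064 and 0.096, and in WT replicate 5, with -0.012 and 0.046. In 2 libraries the sparse members differed in sign from all sparse regions: Het replicate 2 had -0.14 and 0.019, and WT replicate 3 had 0.054 and -0.041. Het replicates 1 and 5 held the smallest shares of signal in the strongest 5% of regions, 28.2% and 29.5%, and WT replicate 4 and Het replicate 3 the largest, 33.6% and 33.2%. The part of this share in the members' spread was not tested.

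**Figure D4:**
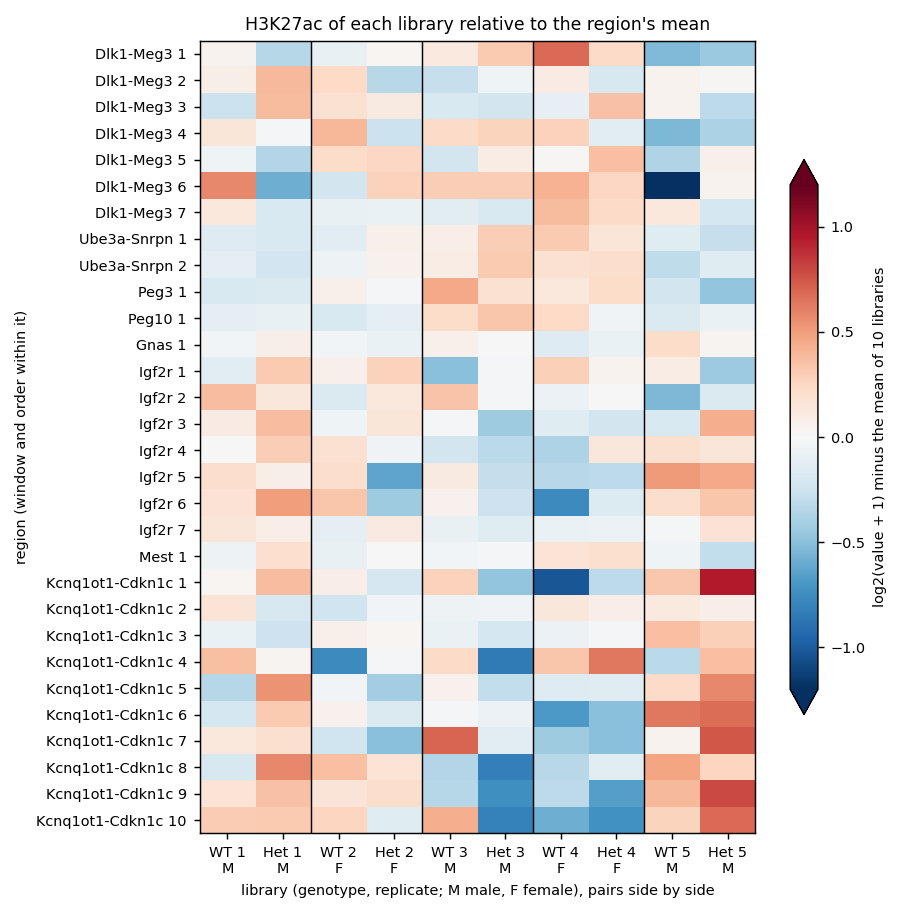
Deviation of each library from the region's mean over 10 libraries (colour, log2 scale; blue lower, red higher) for the 30 regions (y axis) in the 10 libraries (x axis, littermates side by side, M male and F female). Regions 6 to 10 of the Kcnq1ot1 and Cdkn1c window are mostly red in replicate 5 and blue in replicate 4, while Ube3a-Snrpn, Peg3 and Peg10 are red in replicate 3.

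The second comparison set the 6 males against the 4 females. The sexes came from different litters, so sex and litter cannot be told apart. Except where a litter block is named, the fits for sex had no litter term, so littermates counted as independent animals. None of the 30 regions passed limma's adjusted test for sex (0.904% of all regions did, 0.841% higher and 0.0629% lower in males), and limma-voom on the recovered reads called 0. An unadjusted p under 0.05 was found for 6 of the 30 members, where the whole table had 13.2%. Of these 6, 5 were higher in males: 4 of the Kcnq1ot1 and Cdkn1c window and Igf2r region 6 (log2 fold change 0.42, SE 0.18). The remaining one, Dlk1-Meg3 region 1, was lower in males. The 4 of the Kcnq1ot1 and Cdkn1c window are sparse regions, with 12.4 to 15.1 pseudo-counts per kb, and 17 of the 30 members are sparse. At sparse members the male libraries of replicates 1, 3 and 5 had median log2 deviations of 0.096, 0.054 and 0.046 in WT and 0.31, -0.25 and 0.33 in Het. The female libraries of replicates 2 and 4 had 0.19 and -0.15 in WT and -0.14 and -0.14 in Het. These medians include the 4 regions themselves. Over all sparse regions of the table, the male libraries had 0.072, -0.041 and 0.047 in WT and 0.26, -0.17 and 0.15 in Het. The female libraries there had 0.083 and -0.22 in WT and 0.019 and -0.088 in Het. The part of these library deviations in the sex differences was not tested. Region 6 (chr7:150558480-150562229), an enhancer region, ran from 46.7 to 87.2 in males with a median of 60.8, while the females had 56.3 and 33.3 in WT replicates 2 and 4 and 48.1 and 38.2 in Het replicates 2 and 4. The sexes overlapped, and its log2 fold change of males over females was 0.55 (SE 0.18, limma adjusted p 0.13). Without WT replicate 2 its limma adjusted p was 0.0392, and without Het replicate 3 it was 0.0184. With all libraries and litter as a random block it was 0.261. Region 7 (chr7:150575033-150576348) was the only member whose sexes did not overlap, with 16.4 to 30.8 in males (median 20.2) and 15.1, 13.1, 12.4 and 12.4 in the females in the same order (log2 fold change 0.69, SE 0.25, limma adjusted p 0.176). Such a gap was seen in 3.15% of all regions and in 3.33% of the members. Region 7 was called without Het replicate 3 (limma adjusted p 0.0424), while with all libraries and litter as a random block its adjusted p was 0.406. In the other direction, Dlk1-Meg3 region 1 ran from 115 to 208 in males (median 152) while the females had 157 and 268 in WT and 170.0 and 196 in Het. Its log2 fold change was -0.35 (SE 0.15) with a limma adjusted p of 0.301. That p was 0.0208 without Het replicate 3 and 0.478 with all libraries and litter as a random block. Dlk1-Meg3 region 5 ran from 28.4 to 38.9 in males and from 36.9 to 47.3 in females (log2 fold change -0.35, SE 0.18, limma unadjusted p 0.0536). In all, 1 member passed when WT replicate 2 was left out and 5 passed when Het replicate 3 was left out. The share of all regions that passed in these runs is not given here, so the counts do not set the members apart from the table.

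The third comparison tested whether the genotype difference depends on sex. No member passed limma's interaction test, in which 0% of all regions passed, 0 members had an unadjusted p under 0.05 (1.36% of the table did) and limma-voom called 0. The smallest p was that of Dlk1-Meg3 region 2, with an interaction of 0.60 (SE 0.34, unadjusted p 0.0837). The largest interaction was -0.76 (SE 0.58) at Kcnq1ot1-Cdkn1c region 4 (chr7:150543506-150544638), a region of 18.1 pseudo-counts on average; without WT replicate 2 it was -0.22 and without WT replicate 4 it was -1.31. Only 4 of the 30 interaction intervals lay inside 1.5-fold, against 18.8% of those of the whole table. At most members a difference of that size between the sexes was therefore not excluded.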

How the data were processed

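H3K27ac ChIP-seq of 5 WT and 5 Het cortices was read from a table of 50898 regions whose signal the authors give in pseudo-counts, per the file headers: read counts brought to equal library sizes. The submitters' processing notes name Bowtie2, edgeR and mm9; versions and how regions were called and classed were not given in the sources used. The deposited table also holds the authors' log2 fold changes, log2 CPM, p-values and FDR per region. A region was a member when it shared at least 1 base with a window; windows and lists were chosen with earlier results of these data known. Values were tested with limma 3.58.1 (R 4.3.3; trend, robust) on log2(value + 1) for genotype and sex, with all 10 libraries and no filter on low values, and Benjamini-Hochberg adjustment over all regions at 0.05. A separate model added the genotype by sex interaction. Fold changes on this scale understate the change of weak regions. Spread was the SD of log2(value + 1) within genotype.

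Inverting the library-size adjustment (dispersion 0.01509) gave whole reads within 0.1 read for 100% of values. The steps are not linear, so reads served only for depth and limma-voom, and a count test was not used. Animals were collected as 5 littermate pairs per the labels' protocols; titles give pairs 1 to 4 a shared number, and pair 5 is tied by the file headers, which name both animals in its columns. Deviations from the group means correlated by 0.080 to 0.42 within pairs. The regions described in full were, per window, the strongest promoter and the strongest other region by mean, any region called in a comparison, the 3 smallest p in each direction for genotype, 2 in each for sex and 2 for the interaction. Igf2r region 7, Dlk1-Meg3 region 6 and Kcnq1ot1-Cdkn1c region 2 were added after their values were seen. Promoter sequences and gene order came from RefSeq tables of GRCm38.p6. The expression of Dnmt3a and of cell type markers was not analysed here. Alternatives were other scalings (TMM, median of ratios, cyclic loess), a mean of 20 or more, pseudocounts of 0.5 and 5, limma-voom, a litter block, no sex term, a threshold of 0.10 and leaving out each library. The limma procedure and the recovery of reads were tested on simulated data.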

Additional observations from a re-analysis of the deposited data

Results flagged for a closer look

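In 5 of 68 groups of 5 libraries, 1 library lay farther from the other 4, for its group's range, than Dixon's 95% critical value, a limit that chance passes in about 1 in 20 groups. Dlk1-Meg3 region 7 had 189 pseudo-counts in Het replicate 4, with 139 to 153 in the other Het libraries. Peg10 had 131 in Het replicate 3, with 96.3 to 101 in the others. Mest had 173 in WT replicate 4, with 144 to 150.4 in the others. Kcnq1ot1-Cdkn1c region 3 had 199 in WT replicate 5, with 146 to 161 in the others, and its Het littermate had 188. Kcnq1ot1-Cdkn1c region 10 had 23.8 in WT replicate 4, with 43.5 to 49.2 in the others. The cause of these values was not tested.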

How the results depend on the processing

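For genotype, 0 members were called under any of 20 alternatives, with a lowest adjusted p of 0.892 and 0 to 1 unadjusted p under 0.05. With litter as a replicate block, which pairs the littermates, 0 members were called (0.00589% of all regions were), and the block changed no call in the interaction. For sex, 0 members were called under the alternatives that kept all libraries. Their lowest limma adjusted p was 0.110, with cyclic loess, and the lowest with litter as a random block was 0.261. Leaving out 1 library at a time called from 0 to 5 members for sex: 1 without WT replicate 2, 5 without Het replicate 3 and 0 in the other runs. The share of all regions called in these runs is not given here, and the cause was not tested. Between 2 and 13 members had an unadjusted p under 0.05 for sex across alternatives. For the interaction, 0 members were called under 19 alternatives. Of 464 alternative values of single regions, 460 kept their side of the threshold, 4 passed it and 34 had the other sign, none of those called. Peg10, Ube3a-Snrpn region 1 and Gnas were among the latter, so their sign depends on the scaling. Others turned without a single library. Of 48 alternative window sums, 0 moved by more than 1 SD. Depth limits the weakest regions: Dlk1-Meg3 region 6 held 1 to 26 reads.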
